A study of Homo sapiens with 24 samples.

Results

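The genes described here are 375 genes of human chromosome 15 measured by cap analysis of gene expression (CAGE-Seq) in 4 glioblastoma cell lines. CAGE-Seq captures the capped 5′ ends of transcripts and counts the sequenced ends as tags, so that a level in CPM (tags of a gene per 1000000 tags assigned to genes) needs no division by transcript length. The deposited table held 43037 genes, of which 1441 lay on chromosome 15 by the GENCODE position of their Ensembl identifiers, and 392 of those reached 5 CPM in at least 1 library. Leaving out 17 genes by symbol (ribosomal proteins, proteasome, signalosome, and respiratory chain subunits, and 10 genes such as B2M, PKM, and IGF1R) gave 375 genes out of the 12327 that passed the same filter on all chromosomes. They comprised 345 protein-coding genes, 21 long non-coding RNA genes, 7 pseudogenes, and 2 small nuclear RNA genes, with start sites from 22664359 to 101966075 on hg38. The highest level over all libraries decided membership: RFX7 (5.00 CPM), ARNT2-DT (5.01 CPM), and TGM5 (5.14 CPM) were just inside the limit, whereas RASGRF1 (4.95 CPM), CLN6 (4.80 CPM), and MAN2C1 (4.74 CPM) were just outside. The chromosome itself was proposed for the level of its genes relative to all genes in each line and variant, so that level is described below without a test. Medians of windows and lists, and counts of higher or lower genes, rest on the same values and give that level no separate support.

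The study asked how ectopic overexpression of WWOX changed expression in 4 lines, namely U87MG, T98G, U251MG, and DBTRG-05MG. WWOX is a tumor suppressor gene on chromosome 16 that encodes a WW domain-containing oxidoreductase. All 4 lines are established adherent lines that the paper uses to represent human glioblastoma. For the U87MG stock used, the paper states that the patient is unknown, although an origin in the central nervous system is established. Each line was transduced with the GIPZ lentiviral system at a multiplicity of infection of 1.5 and put under puromycin. The “WWOX” variant carried pLenti-GIII-CMV-GFP-2A-Puro with WWOX under the CMV promoter, and the “vec” variant carried the Puro-Blank control lentivirus, so that both variants are puromycin-selected stable transductants. Each of the 8 groups had 3 libraries, named biological replicates in the labels, with nothing stating that they came from separate transductions. The effect of WWOX and that of the selected population therefore cannot be told apart, and p-values measure the spread between these libraries only.

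Chromosome 15 is acrocentric, with its protein-coding genes on the long arm. Near the centromere it holds the imprinted 15q11-q13 domain, in which NDN, MKRN3, and SNRPN are transcribed from the paternal copy and UBE3A is maternally expressed in neurons. Further along the arm lie genes for matrix and adhesion proteins (THBS1, FBN1, ITGA11), mitotic regulators (BUB1B, KNL1), developmental transcription factors (MEIS2, NR2F2, RORA, FOXB1), and signaling proteins (MAP2K1, CSK, NTRK3).

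Sequences upstream of 4 genes are shown because each of these genes rose in the WWOX variant of a line. The windows run from 250 bases before to 50 bases after the RefSeq start site (GRCh38.p14), 5′ to 3′ on the strand of the gene, with capitals marking each CCAAT box (CCAAT) or GC box (GGGCGG) found on either strand and TATAAA found in none of the 4. NDN was read at chr15:23687256-23687555 (minus strand), FOXB1 at chr15:60004061-60004360 (plus strand), ITGA11 at chr15:68432114-68432413 (minus strand), and MTHFS at chr15:79896965-79897264 (minus strand).
NDN: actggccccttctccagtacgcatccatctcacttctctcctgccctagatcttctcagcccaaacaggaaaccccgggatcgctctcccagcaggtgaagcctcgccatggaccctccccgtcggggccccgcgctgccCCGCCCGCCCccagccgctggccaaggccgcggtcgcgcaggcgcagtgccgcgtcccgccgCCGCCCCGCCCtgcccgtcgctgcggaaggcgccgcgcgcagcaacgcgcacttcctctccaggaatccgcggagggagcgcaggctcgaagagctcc
FOXB1: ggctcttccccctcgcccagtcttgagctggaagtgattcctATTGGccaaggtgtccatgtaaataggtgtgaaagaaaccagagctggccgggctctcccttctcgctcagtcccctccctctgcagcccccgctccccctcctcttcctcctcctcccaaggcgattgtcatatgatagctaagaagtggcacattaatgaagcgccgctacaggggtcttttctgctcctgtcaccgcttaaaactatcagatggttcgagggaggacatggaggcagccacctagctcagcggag
ITGA11: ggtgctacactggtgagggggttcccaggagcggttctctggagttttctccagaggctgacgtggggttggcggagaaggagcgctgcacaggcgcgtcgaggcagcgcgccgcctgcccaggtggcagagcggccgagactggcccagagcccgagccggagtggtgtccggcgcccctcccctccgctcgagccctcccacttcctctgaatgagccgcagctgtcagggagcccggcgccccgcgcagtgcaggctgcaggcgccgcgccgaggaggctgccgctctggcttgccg
MTHFS: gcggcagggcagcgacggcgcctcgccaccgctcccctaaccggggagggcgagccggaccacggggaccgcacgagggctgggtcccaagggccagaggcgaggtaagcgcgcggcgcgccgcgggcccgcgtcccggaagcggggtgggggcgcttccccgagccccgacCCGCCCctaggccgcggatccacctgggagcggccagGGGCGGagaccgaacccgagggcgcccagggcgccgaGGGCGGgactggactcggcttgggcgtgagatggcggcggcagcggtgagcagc

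The NDN window held 4 GC boxes, some of which overlapped, and 35 CpG dinucleotides. MTHFS had 3 GC boxes and 43 CpG dinucleotides, FOXB1 had 1 CCAAT box and only 10 CpG dinucleotides, and ITGA11 had none of the searched motifs and 29 CpG dinucleotides. Such windows were found in the RefSeq table for 324 of the 375 genes. TATAAA was present in 13 of these 324 windows (4.01%, against 11.95% of all 27305 promoters of the same length), CCAAT in 123 (38.0% against 35.7%), and GGGCGG in 230 (71.0% against 44.6%). The median number of CpG dinucleotides was 27 in the chromosome 15 windows, with the middle 50% between 20 and 34, and 14 in all promoters, which also include the promoters of genes below 5 CPM. A match is a description of letters and not of a bound factor.

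Each library had 10756072 to 16953689 tags on genes (median 14584829), so that 3 tags, used as a floor, corresponded to 0.177 to 0.279 CPM. WWOX was higher by its median in the WWOX variant of every line, from 39.8 to 61.3 CPM in U87MG, 38.6 to 60.0 CPM in T98G, 32.1 to 38.0 CPM in U251MG, and 21.3 to 28.2 CPM in DBTRG-05MG. None of these differences passed the limma test over all genes (adjusted p = 0.108, 0.512, 1, and 0.744), and the 3 U251MG WWOX libraries spread from 17.4 to 56.7 CPM around vec libraries at 31.4 to 36.8 CPM. The paper reports that Western blot of extracted protein showed the efficiency of transduction, whereas the WWOX values here count transcript starts. Of 7 glial or glioma markers, CD44, VIM, and GFAP were above 3 tags in all 24 libraries, whereas S100B, OLIG2, SOX2, and NES were at or under 3 tags in 8, 10, 9, and 5 of them. The immune markers PTPRC, CD14, and AIF1 summed to at most 0.351 CPM, with AIF1 at 0 throughout. The summed glial markers of T98G (1646 to 2106 CPM in vec, 1256 to 1341 in WWOX), the endothelial markers of U251MG, and the epithelial markers of DBTRG-05MG were apart between the variants. The endothelial sum was mostly CDH5 and the epithelial sum almost all KRT18. Their part in the results was not tested. In bulk libraries, fewer cells with a transcript and less of it per cell cannot be told apart. U251MG WWOX replicate 2 stood apart from the other 2 WWOX libraries of its line in scaling factor (0.778, against 1.198 and 1.231), and the U251MG counts and medians are given with and without it.

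The 375 genes took 1.56% to 3.21% of the tags of a library. PPIB, a cyclophilin of the endoplasmic reticulum, had the highest mean level, 5611 CPM, with libraries from 2067 to 10591 CPM. It was followed by ANXA2 (annexin A2, 1262 CPM), SERF2 (971 CPM), SRP14 (a signal recognition particle subunit, 740 CPM), and MORF4L1 (a chromatin reader, 599 CPM), whereas the mean level of the median gene was 15.03 CPM. Of the 375 genes, 317 had more than 3 tags in all 24 libraries. In U87MG, 21 genes had at most 3 tags in all 6 libraries, and the numbers were 11 for T98G, 9 for U251MG, and 6 for DBTRG-05MG. Only 3 genes exceeded that floor in just 1 line: GABRG3, a GABA receptor subunit, reached 6.36 CPM in U87MG, AQP9, an aquaglyceroporin, reached 6.49 CPM in U87MG, and C15orf48 reached 5.21 CPM in DBTRG-05MG.

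The level of the chromosome as a whole was summarized as the median over its 375 genes of the log2 deviation from the mean of the 8 groups, minus the same median over all 12327 genes. U251MG vec libraries lay at 0.02, 0.03, and -0.06, and the WWOX libraries of this line at 0.41, 0.12, and 0.26. The WWOX libraries of U251MG were thus all above its vec libraries, with replicate 2, the library that stood apart, the lowest of the 3. The endothelial markers PECAM1, VWF, and CDH5 summed to 2.01 to 3.89 CPM in the vec libraries of this line and 4.51 to 13.3 CPM in the WWOX libraries, with PECAM1 at or under 3 tags in all 24 libraries of the study. VWF reached at most 0.330 CPM in any library, so that this sum was mostly CDH5. In U87MG, the vec libraries were at -0.10, -0.08, and -0.09, and the WWOX libraries at 0.02, -0.14, and -0.14. In T98G, the vec libraries were at -0.18, -0.10, and -0.29, and the WWOX libraries at -0.16, -0.10, and -0.08. These groups overlapped in both lines. DBTRG-05MG vec libraries were at 0.05, 0.10, and 0.15, and its WWOX libraries at 0.20, 0.18, and 0.11, which also overlapped.

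**Figure D1:**
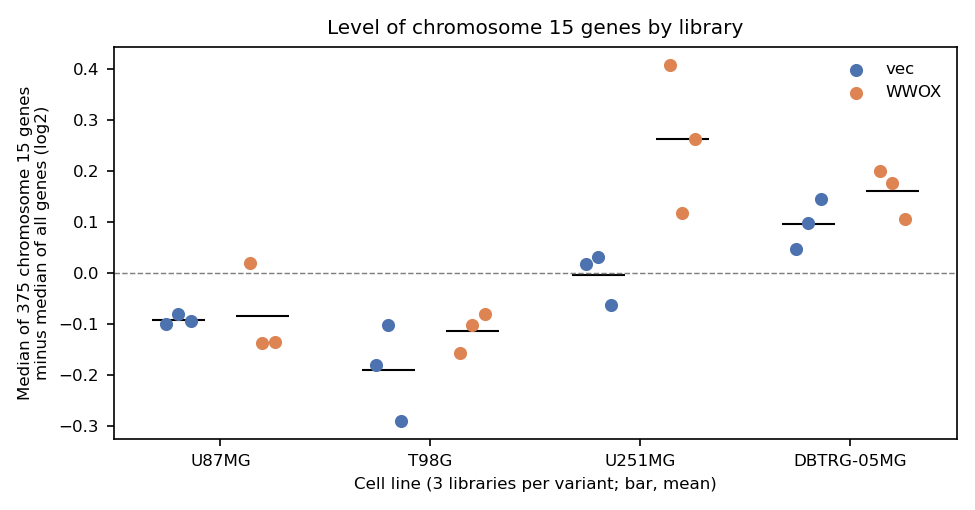
Level of the 375 chromosome 15 genes relative to all genes (log2, y axis) in each of the 24 libraries, grouped by line and variant (x axis), with points for libraries and bars for group means. The 3 U251MG WWOX libraries lie between 0.12 and 0.41, above the 3 vec libraries of that line, which lie between -0.06 and 0.03, while the variants of the other 3 lines overlap.

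Gene by gene, the median difference between the WWOX and vec groups, taken relative to all genes, was 0.24 on the log2 scale in U251MG, where 276 of the 375 genes (73.6%) lay above the median of all genes. The corresponding values were 0.01 in U87MG (190 genes above), 0.04 in T98G (200 genes), and 0.06 in DBTRG-05MG (219 genes). When every gene of each chromosome that passed the filter was used, chromosome 15 had the highest of 23 relative medians in U251MG, followed by chromosomes 4, 14, and X with 0.13 each, and chromosome 22 had the lowest with -0.08. In U87MG, T98G, and DBTRG-05MG the chromosome ranked 6, 11, and 9 from the highest. The U251MG value stayed between 0.22 and 0.25 under the other scalings, filters, and corrections tried, and between 0.19 and 0.28 when any library was left out, with 0.28 (269 genes above) without WWOX replicate 2.

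**Figure D2:**
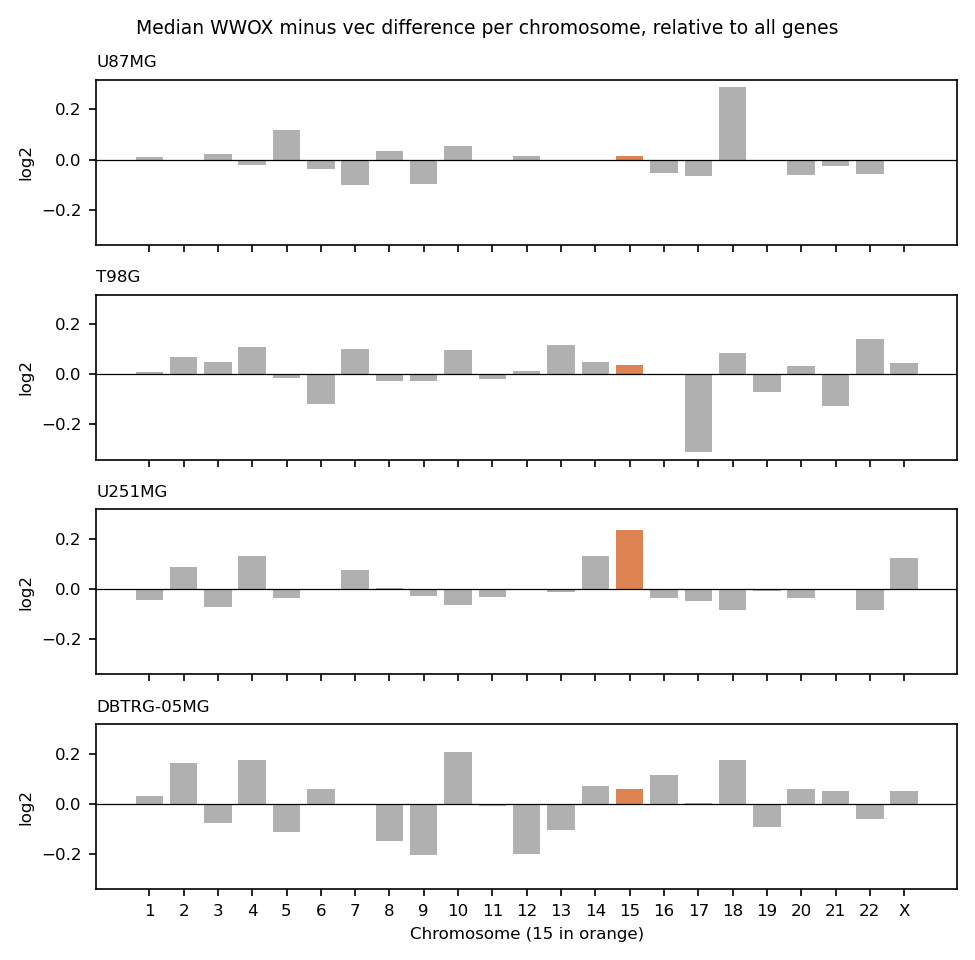
Median WWOX minus vec difference of each chromosome relative to all genes (log2, y axis) in the 4 lines, with chromosome 15 marked among the 23 chromosomes. In U251MG chromosome 15 is the highest at 0.24 and the next are at 0.13, whereas it ranks 6, 11, and 9 in U87MG, T98G, and DBTRG-05MG.

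Along the chromosome, the U251MG difference was positive in all 9 windows of 10 Mb, with relative medians from 0.12 (100 to 110 Mb, 10 genes) to 0.38 (80 to 90 Mb, 44 of 51 genes above the median of all genes). The WWOX and vec libraries of U251MG did not overlap in 3 windows: from 70 to 80 Mb (0.21 to 0.46 against -0.03 to 0.16), from 80 to 90 Mb (0.12 to 0.33 against -0.15 to -0.04), and from 90 to 100 Mb (0.38 to 0.62 against 0.11 to 0.28). In the remaining 6 windows the libraries of the variants overlapped. In 5 of these, all from 20 to 70 Mb, WWOX replicate 2 was the only WWOX library not above all vec libraries, so that without it 8 of 9 windows were apart. From 50 to 60 Mb, for example, replicate 2 was at -0.06 and the other 2 WWOX libraries were at 0.57 and 0.83, against 0.17 to 0.20 in vec. From 40 to 50 Mb, WWOX replicate 2 (0.06) was below vec replicate 2 (0.13) only. Gene by gene, the difference without WWOX replicate 2 ranged from 0.13 to 0.54 in the 8 windows and was -0.000247 from 100 to 110 Mb. In the other lines, libraries were apart in 1 U87MG window (lower from 80 to 90 Mb), 1 T98G window (higher from 90 to 100 Mb), and 2 DBTRG-05MG windows (higher from 60 to 70 Mb and from 90 to 100 Mb).

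**Figure D3:**
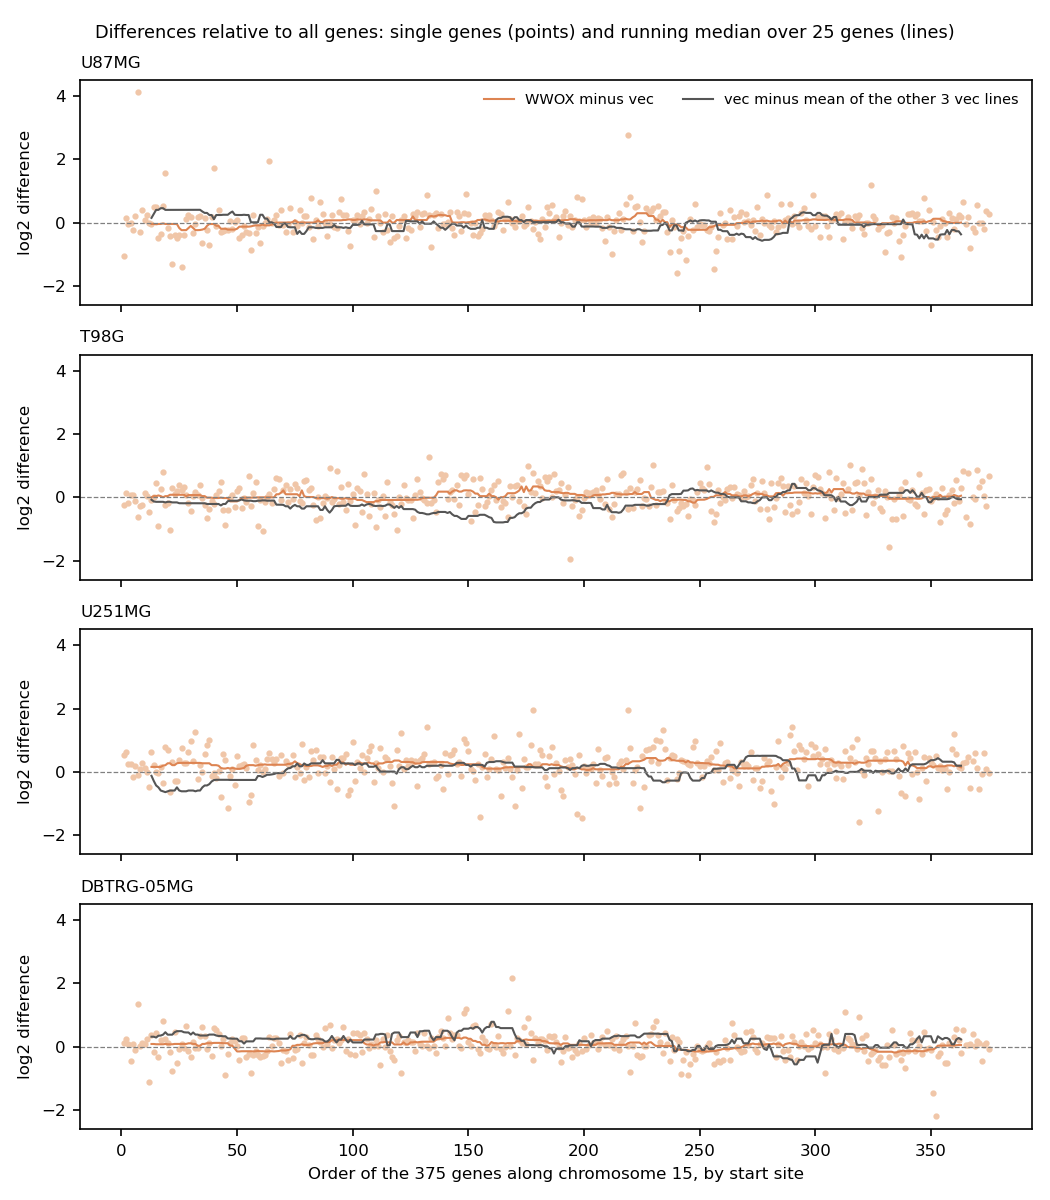
WWOX minus vec difference of each of the 375 genes relative to all genes (log2, y axis) in the order of start sites along chromosome 15 (x axis) in the 4 lines, with running medians over 25 genes of WWOX minus vec (orange) and of vec minus the other vec lines (grey). The WWOX running median of U251MG stays between 0.07 and 0.44, whereas it crosses 0 in the other lines, with ranges from -0.24 to 0.29 in U87MG, -0.17 to 0.34 in T98G, and -0.18 to 0.29 in DBTRG-05MG.

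The overlap of libraries was then counted gene by gene. The chromosome was proposed for the level of its genes, so that an excess of higher genes in U251MG restates that level. In U251MG, 53 of the 375 genes (14.1%) had all 3 WWOX libraries above all 3 vec libraries, against 5.78% of all genes tested, and 8 (2.13%) had them all below, against 4.68%. Without WWOX replicate 2 the counts were 133 (35.5%, against 18.5% of all genes) and 21 (5.6%, against 17.6%). For comparison, such genes numbered 22 higher and 23 lower in U87MG (8.19% and 8.99% of all genes), 32 and 24 in T98G (7.42% and 8.76%), and 45 and 24 in DBTRG-05MG (9.67% and 10.1%). Among the 53 genes were CA12 (a carbonic anhydrase of the cell surface), TNFAIP8L3, RORA (a nuclear receptor), ABHD17C (a protein depalmitoylase), SHC4 and SPRED1 (adaptors of receptor tyrosine kinase and RAS signaling), and MTHFS. CA12 had 1.297, 1.75, and 0.469 CPM in the vec libraries and 6.04, 3.86, and 8.18 CPM in the WWOX libraries, and its log2FC of 1.98 ± 0.62 did not pass the test (limma, adjusted p = 0.186). The 8 genes with lower WWOX libraries were NTRK3, MNS1, ANXA2, SRP14, MFAP1, MORF4L1, RBPMS2, and LEO1, 3 of which (ANXA2, SRP14, and MORF4L1) were among the 5 genes with the highest mean level. The genes of this paragraph were named after their values had been seen.

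Single genes were then tested with limma in a model of all 24 libraries, with p-values adjusted over the 12327 genes. A log2FC below is the WWOX minus vec difference on the scale of log2(scaled CPM + 0.5), given ± SE with n = 3 libraries per group, and it understates the change of genes near 0 CPM. In U87MG, 4 of the 375 genes changed (1.07%, against 3.2% of all genes), 3 higher and 1 lower (1.57% and 1.64% of all genes). T98G had 2 (0.533%, against 1.14%), 1 higher and 1 lower (0.365% and 0.779%). U251MG had 2 as well (against 0.308%), both higher (against 0.114%, with 0.195% lower), and DBTRG-05MG had 4 (against 1.03%), 2 in either direction (0.535% and 0.495%). NDN, which encodes necdin, a growth-suppressing protein of the imprinted domain at chr15:23685400-23687305 (minus strand), was the only gene called in more than 1 line. NDN, ITGA11, and SCAMP2 overlap no other annotated gene, whereas LINC02352, STRA6, UBAP1L, MTHFS, TNFAIP8L3, FOXB1, ST8SIA2, and SLCO3A1 overlap at least 1, so that the assignment of their tags is less certain.

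In U87MG, NDN rose the most. It had 1.21, 0.850, and 1.61 CPM in the vec libraries and 23.7, 30.5, and 34.3 CPM in the WWOX libraries, a log2FC of 4.12 ± 0.26 (limma, adjusted p = 4.75e-10). All WWOX libraries were far above the vec libraries, and the call held under each alternative and without any single library. ITGA11, the alpha chain of a collagen-binding integrin at chr15:68296532-68432163, was at or under the floor in vec (0.0710, 0, and 0.140 CPM) and had 5.75, 1.97, and 2.88 CPM in WWOX, at least 16.2-fold higher (limma, adjusted p = 0.00672). Its call was lost only without WWOX replicate 1, the highest of the 3 libraries (adjusted p = 0.0553). LINC02352, a long non-coding RNA gene at chr15:31215622-31224445 that overlaps a gene on the opposite strand, had 2.41, 0.850, and 1.12 CPM in the vec libraries and 5.02, 4.07, and 6.27 CPM in the WWOX libraries (log2FC 1.56 ± 0.39, limma adjusted p = 0.0257). STRA6, the cell-surface receptor for retinol-binding protein at chr15:74179466-74212267, was the only gene that fell, with 1.35, 2.24, and 3.09 CPM in the vec libraries and 1.04, 0.543, and 0.593 CPM in the WWOX libraries (log2FC -1.19 ± 0.29, limma adjusted p = 0.0204). The variants did not overlap for either gene. The LINC02352 call was lost without vec replicate 2 or 3 or WWOX replicate 1 or 3 (adjusted p up to 0.172), and the STRA6 call without vec replicate 2 or 3 or WWOX replicate 2 or 3 (up to 0.150).

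In T98G, SCAMP2, a secretory carrier membrane protein of vesicle recycling at chr15:74843730-74873365, rose. It had 43.2, 49.4, and 45.5 CPM in the vec libraries and 84.5, 72.95, and 107 CPM in the WWOX libraries, a log2FC of 0.92 ± 0.21 (limma, adjusted p = 0.0335). Every WWOX library was above every vec library, but the call was lost without vec replicate 1 or 3 or WWOX replicate 1 or 3 (adjusted p up to 0.242). The SCAMP2 call was also lost with CPM as deposited, a separate model, or a replicate block. UBAP1L fell, with 4.99, 1.25, and 8.41 CPM in the vec libraries and 1.39, 0.445, and 0.330 CPM in the WWOX libraries (log2FC -1.99 ± 0.44, limma adjusted p = 0.0262). Its libraries overlapped, as vec replicate 2 was below WWOX replicate 1, and the gene is named here after its value had been seen. The UBAP1L call was lost without vec replicate 1 or WWOX replicate 2 or 3 (adjusted p up to 0.209). Without vec replicate 2, 8 genes of the chromosome were called in T98G, with the share over all genes not given. In U87MG and DBTRG-05MG, UBAP1L was at or under 3 tags in every library.

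In U251MG, MTHFS, which encodes methenyltetrahydrofolate synthetase, an enzyme of folate metabolism at chr15:79833585-79897379, rose. It had 12.9, 12.3, and 9.71 CPM in the vec libraries and 21.9, 22.96, and 24.8 CPM in the WWOX libraries (log2FC 0.98 ± 0.20, limma adjusted p = 0.0397). Every WWOX library was above every vec library, although the annotation places 4 other genes on the same strand over MTHFS, among which tags cannot be divided with certainty. TNFAIP8L3, a phosphoinositide transfer protein at chr15:51056598-51105276, had 3.81, 2.79, and 2.01 CPM in the vec libraries and 11.2, 7.01, and 7.71 CPM in the WWOX libraries (log2FC 1.45 ± 0.31, limma adjusted p = 0.0499). Both adjusted p-values were close to 0.05, and edgeR or voom on the recovered tags called neither gene. Leaving out 1 library of any line ended the MTHFS call in 14 of 24 cases and the TNFAIP8L3 call in 17 of 24 (limma, adjusted p up to 0.360 and 0.363). Leaving out U251MG WWOX replicate 2 raised the number of genes called on the chromosome from 2 to 24 (6.4%, against 4.58% of all genes), 20 of them higher (against 2.23%) and 4 lower (against 2.36%). The excess of higher genes again restates the level for which the chromosome was proposed.

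The 20 genes that rose without that library again included MTHFS (log2FC 0.76) and TNFAIP8L3 (log2FC 1.36). Among the other 18, named after their values had been seen, were the nuclear receptors NR2F2 (log2FC 1.44) and RORA (1.38), ABHD17C (1.42), the homeobox factor MEIS2 (1.06), the zinc finger factor KLF13 (0.99), and NPTN (0.97), an adhesion protein of the immunoglobulin superfamily. GOLGA8B (1.58) and PIN4P1 (1.23) also rose, but have close copies and a parent gene, respectively. The 4 genes that fell were NTRK3 (-1.85), ANXA2 (-1.31), SRP14 (-0.98), and MFAP1 (-0.94). ANXA2 had 1450.1, 2187, and 1581 CPM in the vec libraries and 560.3, 856, and 1153 CPM in the WWOX libraries, so that all 3 WWOX libraries were below all 3 vec libraries. With all libraries included, its log2FC was -1.05 ± 0.29 (limma, adjusted p = 0.132).

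In DBTRG-05MG, NDN rose as well, from a higher vec level than in the other lines. It had 12.4, 6.95, and 14.2 CPM in the vec libraries and 25.1, 28.4, and 35.6 CPM in the WWOX libraries, a log2FC of 1.35 ± 0.26 (limma, adjusted p = 0.00742). The WWOX libraries of DBTRG-05MG were in the same range as those of U87MG, 23.7 to 35.6 CPM over both lines. The call was lost without vec replicate 2 or WWOX replicate 3 (adjusted p up to 0.0764), and also with a pseudocount of 0.1, a separate model, or edgeR (up to 0.187). FOXB1, a forkhead transcription factor of the developing nervous system at chr15:60004234-60061730, had 4.19, 5.60, and 2.44 CPM in the vec libraries and 15.2, 26.05, and 20.9 CPM in the WWOX libraries (log2FC 2.17 ± 0.33, limma adjusted p = 0.000627). Its 3 WWOX libraries were all above the vec libraries, and the call held without any single library, but not with a pseudocount of 0.1, a separate model, or edgeR (adjusted p up to 0.227). ST8SIA2, a sialyltransferase that builds polysialic acid on the neural cell adhesion molecule, lies at chr15:92393881-92468728 (plus strand). It fell, with 29.5, 22.1, and 35.5 CPM in the vec libraries and 5.84, 8.16, and 4.87 CPM in the WWOX libraries (log2FC -2.17 ± 0.25, limma adjusted p = 1.51e-05), and its call held in each alternative. SLCO3A1, an organic anion transporter at chr15:91853708-92172435, had 1.51, 1.80, and 1.12 CPM in the vec libraries and 0.236, 0.194, and 0.137 CPM in the WWOX libraries (log2FC -1.47 ± 0.27, limma adjusted p = 0.00496). SLCO3A1 was low in this line in both variants, whereas T98G, U87MG, and U251MG libraries had 4.71 to 38.8 CPM. The epithelial markers EPCAM, KRT18, and CDH1 summed to 905 to 1260 CPM in the DBTRG-05MG vec libraries and 491 to 733 CPM in the WWOX libraries. EPCAM reached at most 0.914 CPM and CDH1 at most 2.33 CPM in any library of the study, so that this sum was almost all KRT18.

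**Figure D4:**
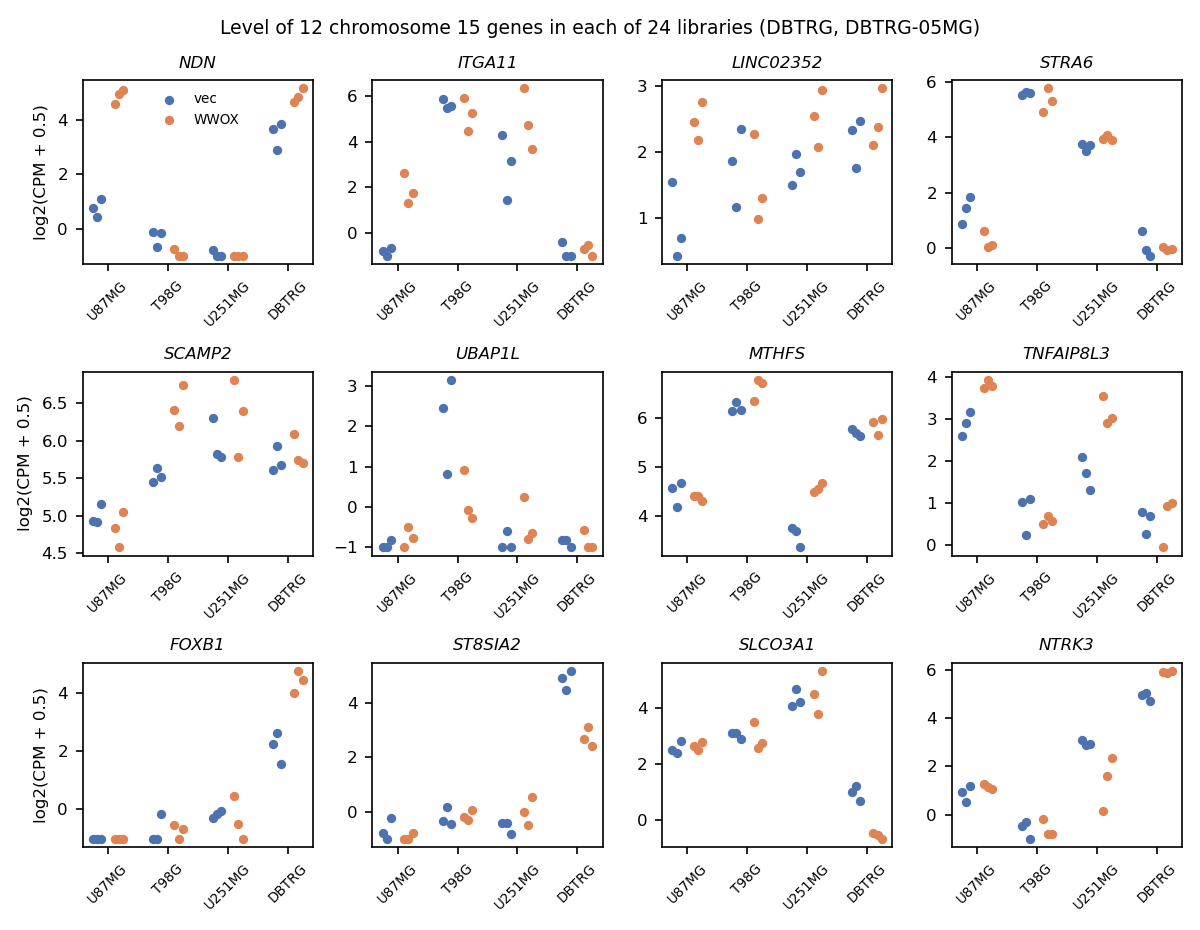
Level of 12 chromosome 15 genes in each library as log2(deposited CPM + 0.5) (y axis), by line and variant (x axis), with a point for each library. NDN is separated between variants in U87MG and DBTRG-05MG and is at or near 0 CPM in T98G and U251MG, FOXB1 and ST8SIA2 are separated in opposite directions in DBTRG-05MG, and UBAP1L overlaps between the T98G variants.

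Whether the log2FC of a gene differed among the 4 lines was tested with an F test in the same model. It called 6 of the 375 genes (1.6%, against 3.5% of all genes): NDN (adjusted p = 6.06e-08), ST8SIA2 (0.000124), FOXB1 (0.00756), NTRK3 (0.0330), SLCO3A1 (0.0349), and ABHD17C (0.0472). Among these, the call of NDN held in each alternative, that of ST8SIA2 was lost with voom only, and that of FOXB1 with a pseudocount of 0.1, edgeR, or voom. The calls of NTRK3, SLCO3A1, and ABHD17C were lost in 6, 3, and 6 of 9 alternatives. A replicate block was among these for all of them (adjusted p = 0.104, 0.116, and 0.196). They were also lost in 10, 11, and 19 of the 24 cases when 1 library was left out. Without U251MG WWOX replicate 2 they were kept (limma, adjusted p = 0.0152, 0.0179, and 0.00976). For NDN, the log2FC was 4.12 in U87MG and 1.35 in DBTRG-05MG, whereas T98G WWOX and both U251MG variants had at most 1 tag per library. ST8SIA2 had at most 0.947 CPM in every library outside DBTRG-05MG, and FOXB1 at most 0.892 CPM, so that neither gene reached 1 CPM in the other 3 lines.

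NTRK3, the receptor for neurotrophin-3, had 7.95, 7.003, and 7.03 CPM in the vec libraries and 0.617, 2.50, and 4.67 CPM in the WWOX libraries in U251MG, with no overlap (log2FC -1.56 ± 0.37). In DBTRG-05MG the WWOX libraries were the higher ones, with 30.6, 32.6, and 25.95 CPM in the vec libraries and 59.3, 58.4, and 61.1 CPM in the WWOX libraries (log2FC 0.94 ± 0.37), and the variants were again apart. Neither log2FC passed the limma test on its own (adjusted p = 0.0734 and 0.465). In U87MG, NTRK3 was between 0.927 and 1.90 CPM, and in T98G it was at or below 0.372 CPM. ABHD17C had 4.05, 7.72, and 6.30 CPM in the vec libraries and 15.8, 6.87, and 23.5 CPM in the WWOX libraries in U251MG, where replicate 2 of WWOX lay within the vec range before scaling and above it after scaling. Its log2FC was 1.17 ± 0.27 there (limma, adjusted p = 0.0585), 0.58 in U87MG, -0.30 in DBTRG-05MG, and -0.28 in T98G. WHAMM, an actin nucleation factor, and ITGA11 were next in order but did not pass (adjusted p = 0.0613 and 0.0629).

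The 7 lists of genes by function covered 169 of the 375 genes. Counts at an unadjusted p under 0.05 are given below without the share over all genes and are not read as results about the chromosome. Of the imprinted 15q11-q13 list, 6 of 19 listed genes were members, among them NDN, SNRPN, UBE3A, MKRN3, and GABRG3. Only NDN passed the test, rising in U87MG and DBTRG-05MG, so that 1 of 6 genes rose and none fell in each of these lines, and none was called in T98G or U251MG by limma, edgeR, or voom (1 in T98G and 0 in U251MG at an unadjusted p under 0.05). UBE3A, a ubiquitin ligase, had a log2FC of -0.29 to 0.40 over the 4 lines, and SNRPN, a spliceosomal protein gene, of -0.32 to 0.11, without passing the test in any of them. However, SNRPN had at most 0.639 CPM in every U87MG, T98G, and U251MG library, where a log2FC says little about a change. MKRN3 (-0.14 to 0.22) and the GABA receptor subunit gene GABRG3 (0.00 to 0.24) lacked calls as well, with GABRG3 above the floor in U87MG only. The U87MG libraries of the list, as the relative median over its genes, were at -0.49 to -0.19 in vec and 0.38 to 0.54 in WWOX. Gene by gene, the relative median of the list in U87MG was 0.21. There, 5 of the 6 log2FC values were above 0, with NDN (4.12) the only call, and SNRPN had -0.30.

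Mitosis and genome maintenance genes numbered 24, and none passed the limma test in any line or was called by edgeR or voom, with 2 genes in T98G, 2 in U251MG, and 0 in the other lines at an unadjusted p under 0.05. In U251MG, the list ran against the rest of the chromosome, with a relative median of -0.55 and 7 of 24 log2FC values above 0, although its libraries overlapped widely. The vec libraries were at -0.36, 0.42, and 0.02, and the WWOX libraries at -0.89, -0.33, and 0.39. CCNB2, a mitotic cyclin, shows this spread, with 24.97, 92.4, and 52.6 CPM in the vec libraries and 9.67, 24.5, and 104 CPM in the WWOX libraries. FANCI, of the Fanconi anemia repair pathway, had a log2FC of -1.22 (limma, adjusted p = 0.402), whereas TUBGCP4, of the gamma-tubulin complex, had 0.48. These 3 genes were named after their values had been seen. The genes with the highest levels were MORF4L1 (log2FC from -0.58 to 0.42 over the 4 lines), KNSTRN, a kinetochore-associated protein gene (-0.41 to 0.19), and TP53BP1, of the DNA double-strand break response (-0.52 to 0.81).

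Transcription factors and chromatin genes (30) had a relative median of 0.26 in U251MG, with 25 of 30 values above 0. With all libraries included, FOXB1 in DBTRG-05MG was the only one of them that changed in any line. MEF2A had a log2FC of 0.29 to 0.81 over the lines, RTF1, of the elongation machinery, of -0.13 to 0.54, and ZNF106 of -0.25 to 0.48. Kinases and signaling genes (27) had a relative median of 0.36 in U251MG, the highest of the 7 lists, with 21 of 27 above 0. With all libraries included, no gene of this list was called in any line by limma, edgeR, or voom. At an unadjusted p under 0.05 there were 4, 3, 7, and 1 genes in U87MG, T98G, U251MG, and DBTRG-05MG. Of the 3 genes with the highest levels, CSK, which restrains SRC family kinases, had -0.13 in U251MG, the scaffold IQGAP1 -0.05, and MAP2K1, the MEK1 kinase, 0.44. Trafficking and cytoskeleton genes (36) had 0.26 in U251MG, with 30 of 36 above 0. SCAMP2 in T98G was the only gene that passed with all libraries included. EMC7, TMED3, and TSPAN3, which act in the endoplasmic reticulum, early secretory pathway, and membrane, had log2FC values of -0.40 to 0.40, -0.31 to 0.18, and -0.01 to 0.22 over the 4 lines.

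Mitochondria and metabolism genes (26) had a relative median of 0.15 in U251MG, with 19 of 26 above 0, and MTHFS was the only gene that passed in any line. ALDH1A3, a retinaldehyde dehydrogenase, had a log2FC of -0.87 to 0.08 over the 4 lines, MPI, mannose phosphate isomerase, of -0.28 to 0.39, and MRPS11, a mitochondrial ribosomal protein gene, of -0.37 to 0.43. Matrix and secreted protein genes (20) had 0.10 in U251MG, with 13 of 20 above 0. With all libraries included, none was called in any line by limma, edgeR, or voom, with 3, 3, 5, and 2 genes at an unadjusted p under 0.05. ANXA2 had a log2FC of -1.05 to 0.31, the metalloprotease ADAM10 of 0.08 to 0.71, and MFAP1 of -0.71 to 0.38. MFAP1 is counted here as listed, although it is not established as a matrix or secreted protein. Mitosis and genome maintenance was the only one of the 7 lists with a relative median below 0 in U251MG. Over all 12327 genes the median log2FC of the line was 0.01. Without WWOX replicate 2, the relative median of the mitosis list was -0.33 and those of the other 6 lists lay between 0.09 (mitochondria and metabolism) and 0.44 (transcription factors and chromatin). Calls in U251MG by limma were then 4 higher of 30 transcription factor and chromatin genes, and 3 higher and 1 lower of 27 kinase and signaling genes. Of 36 trafficking and 26 metabolism genes, 1 each was called higher, and 2 of 20 matrix genes lower. The imprinted and mitosis lists had none. Over all genes, 2.23% were called higher and 2.36% lower.

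**Figure D5:**
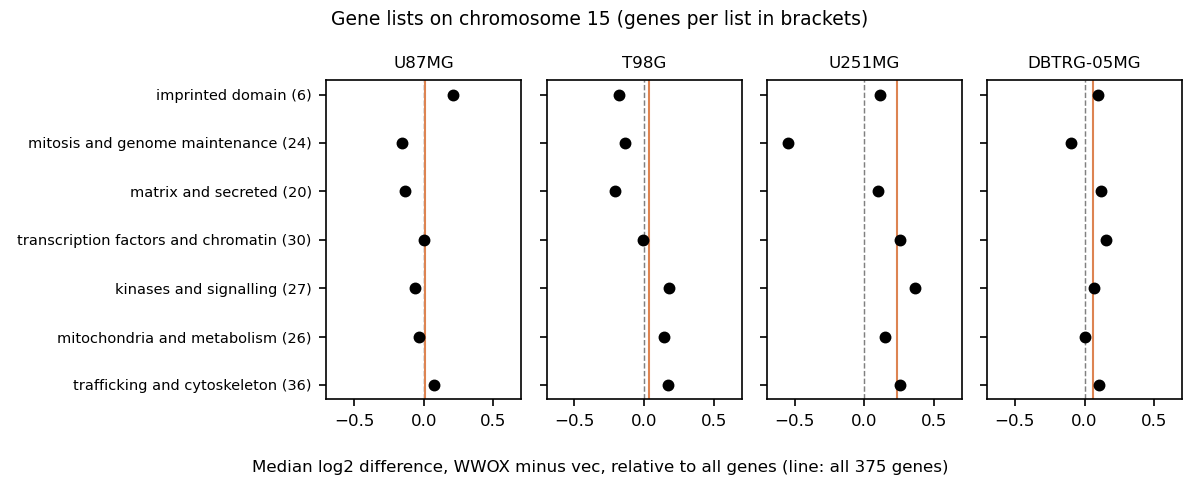
Relative median WWOX minus vec difference (log2) of each of the 7 functional lists of chromosome 15 genes in the 4 lines. In U251MG 6 lists lie between 0.10 and 0.36 and mitosis and genome maintenance lies at -0.55.

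The vec variants of the 4 lines were compared to describe the level of the genes without ectopic WWOX. The paper reports MEM medium for T98G, EMEM for U87MG and U251MG, and RPMI for DBTRG-05MG. What sets T98G or DBTRG-05MG apart therefore cannot be told apart from medium. Each line was set against the mean of the other 3 vec groups, and since these comparisons share libraries, their counts are not independent. In U87MG, 153 of the 375 genes differed (40.8%, against 45.4% of all genes), 65 higher and 88 lower (against 21.1% and 24.3% of all genes). In T98G there were 137 (36.5%, against 40.6%), 49 higher and 88 lower (20.5% and 20.1%), and in U251MG 114 (30.4%, against 34.7%), 52 higher and 62 lower (16% and 18.8%). In DBTRG-05MG there were 150 (40%, against 42.6%), 91 higher and 59 lower (21.9% and 20.7%). The relative median of the chromosome was -0.06 in U87MG and -0.18 in T98G, against 0.09 in U251MG and 0.23 in DBTRG-05MG, ranking 14, 18, 7, and 4 from the highest of 23 chromosomes. By window, the farthest values were -0.58 in U251MG (30 to 40 Mb), -0.55 in T98G (50 to 60 Mb), 0.50 in DBTRG-05MG (50 to 60 Mb), and 0.40 in U87MG (30 to 40 Mb).

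In U87MG vec, CSPG4, SEMA7A, SCG5, and PAQR5 had the largest upward differences among the called genes whose libraries were apart from those of the other lines. CSPG4, which encodes the NG2 proteoglycan, had 17.5, 33.1, and 40.1 CPM in U87MG, against 0 to 3.29 CPM (median 0) in the other 9 vec libraries. SEMA7A, a membrane-anchored semaphorin, had 79.5, 90.9, and 164 CPM in U87MG, against 0.934 to 16.6 CPM (median 4.26), and SCG5, a neuroendocrine chaperone, had 53.6, 53.8, and 79.5 CPM in U87MG, against 0 to 13.5 CPM (median 4.07). PAQR5, a membrane progesterone receptor, was likewise high, with 12.99, 7.26, and 11.99 CPM in U87MG, against 0 to 1.16 CPM (median 0.239). The U87MG libraries were above every other vec library for these 4 genes. THBS1, the matrix glycoprotein thrombospondin-1, was low, with 0.710, 0.386, and 0.140 CPM in U87MG, against 14.9 to 192 CPM (median 45.6). APBA2, an adaptor that binds the amyloid precursor protein, was at or under the floor with 0.0710, 0.0773, and 0.0701 CPM, at least 152-fold below the mean of the other vec libraries. The bound was 73.4-fold for RGMA, a repulsive guidance molecule, and 50.3-fold for SYNM, the intermediate filament protein synemin. The mean behind the SYNM bound rested mostly on U251MG vec, whose values are given below. RGMA was also near 0 in T98G vec (0.156 to 0.492 CPM), so that its low level was shared by both lines, against 7.77 to 50.1 CPM in U251MG and DBTRG-05MG vec. Adjusted p-values of these 8 genes were 1.35e-14 to 1.61e-07 (limma).

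T98G vec stood out by ITGA11 and GLDN. ITGA11 had 56.9, 43.9, and 46.8 CPM in T98G, against 0 to 19.1 CPM (median 0.140) in the other 9 vec libraries, and GLDN, which encodes gliomedin, had 60.1, 64.5, and 49.8 CPM in T98G, against 0 to 24.04 CPM (median 0.0773). STRA6 had 46.1, 48.9, and 48.03 CPM in T98G, against 0.329 to 12.9 CPM (median 2.24) and LTK, a receptor tyrosine kinase, had 9.84, 6.77, and 11.7 CPM in T98G, against 0 to 2.42 CPM (median 0.0701). All of these were above the range of the other lines. MAP1A, a microtubule-associated protein of neurons, was low, with 5.55, 3.45, and 3.89 CPM in T98G, against 18.5 to 264 CPM (median 81.6). LYSMD4 had 0.633, 0.376, and 0.234 CPM in T98G, against 7.11 to 16.2 CPM (median 12.3). NTRK3 was near 0, with 0.211, 0.313, and 0 CPM in T98G, against 0.927 to 32.6 CPM (median 7.03), and FRMD5 had 1.97, 2.63, and 1.25 CPM in T98G, against 9.37 to 66.3 CPM (median 36.3). These 4 genes were below every library of the other lines. Adjusted p-values of the 8 genes were 4.11e-12 to 8.57e-08 (limma). ITGA11 was thus near 0 in U87MG and DBTRG-05MG vec, and the level it reached in U87MG WWOX (1.97 to 5.75 CPM) was below that of T98G vec.

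U251MG vec had the highest SYNM, 20.4, 45.4, and 15.8 CPM in U251MG, against 0 to 5.27 CPM (median 1.79) in the other 9 vec libraries, and the highest LINC01579, 34.5, 37.9, and 28.3 CPM in U251MG, against 0.0701 to 18.9 CPM (median 0.355). ADAMTS7, a secreted metalloprotease, had 36.5, 33.4, and 21.8 CPM in U251MG, against 1.85 to 6.07 CPM (median 3.73), and DAPK2, a death-associated protein kinase, had 17.6, 9.71, and 11.9 CPM in U251MG, against 0.213 to 2.76 CPM (median 1.195). CA12 was low, with 1.297, 1.75, and 0.469 CPM in U251MG, against 7.598 to 223 CPM (median 57.9), which is the gene whose WWOX libraries lay above its vec libraries in this line. GCHFR, the feedback regulator of GTP cyclohydrolase, had 0.486, 0.398, and 0.0670 CPM in U251MG, against 14.5 to 108 CPM (median 24.04). SCG5 had 0.568, 0.159, and 0 CPM in U251MG, against 3.28 to 79.5 CPM (median 13.03), and MCTP2 was at or under the floor, at least 36.6-fold below the mean of the other libraries. Adjusted p-values of the 8 genes were 7.74e-13 to 1.05e-06 (limma).

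DBTRG-05MG vec had the largest upward difference among the genes named here, that of ANPEP. This cell-surface aminopeptidase N had 55.4, 54.7, and 82.7 CPM in DBTRG-05MG, against 0 to 0.633 CPM (median 0.0670) in the other 9 vec libraries. SNRPN had 33.3, 31.5, and 31.2 CPM in DBTRG-05MG, against 0 to 0.639 CPM (median 0.501), although 5 genes on the same strand and 2 on the other overlap it. ST8SIA2 had 29.5, 22.1, and 35.5 CPM in DBTRG-05MG, against 0 to 0.627 CPM (median 0.239), and SPINT1, an inhibitor of the hepatocyte growth factor activator, had 46.7, 28.3, and 39.5 CPM in DBTRG-05MG, against 0 to 1.38 CPM (median 0.701). Their log2 differences were 6.52 ± 0.19, 5.17 ± 0.24, 5.20 ± 0.21, and 5.14 ± 0.27, respectively. AP3B2, of the neuronal AP-3 complex, was at or under the floor, at least 27.4-fold below the mean of the other libraries. STRA6 was low as well, with 1.05, 0.451, and 0.329 CPM in DBTRG-05MG, against 1.35 to 48.9 CPM (median 12.7). TMC3-AS1, an antisense gene, had 0.524, 1.55, and 0.659 CPM in DBTRG-05MG, against 2.07 to 13.8 CPM (median 7.15), and SMAD6, an inhibitory SMAD, had 3.73, 3.80, and 2.31 CPM in DBTRG-05MG, against 4.33 to 55.9 CPM (median 17.4). Adjusted p-values of the 8 genes were 4.50e-17 to 0.000261 (limma).

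Head-to-head neighbours, whose start sites lie at most 1000 bases apart on opposite strands and point away from each other, were examined because CAGE-Seq counts starts. There were 23 such pairs among the 375 genes and 731 among all genes tested. The WWOX differences of the 2 neighbours had the same sign in 16 of 23 pairs in U87MG (69.6%, against 59.9% of all pairs), 11 in T98G (47.8%, against 61.3%), 12 in U251MG (52.2%, against 55.8%), and 16 in DBTRG-05MG (69.6%, against 67.2%). Between the vec variants, in the same order of lines, the counts were 14 (60.9%, against 64.6% of all pairs), 16 (69.6%, against 67.3%), 18 (78.3%, against 66.5%), and 16 of 23 (69.6%, against 64.6%). The stretch between MRPL46 and MRPS11, both mitochondrial ribosomal protein genes, is printed as an example of a shared start region. It was read from hg38 at chr15:88467360-88467483 (plus strand), with capitals from the start of MRPL46 to that of MRPS11, 63 bases apart, and 30 bases on either side.
MRPL46 and MRPS11: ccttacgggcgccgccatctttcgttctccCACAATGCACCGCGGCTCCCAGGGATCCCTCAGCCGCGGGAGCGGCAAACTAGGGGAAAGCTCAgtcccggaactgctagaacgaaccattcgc

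This window held 12 CpG dinucleotides and none of the 3 motifs. MRPL46 had a log2FC of -0.18, 0.85, 0.04, and 0.27 in U87MG, T98G, U251MG, and DBTRG-05MG, and MRPS11 of -0.37, 0.43, -0.09, and -0.12. CIAO2A, of cytosolic iron-sulfur assembly, and SNX1, a sorting nexin of the retromer, start 266 bases apart and had log2FC values of -0.07 to 0.55 and -0.15 to 0.61 over the lines. TP53BP1 and MAP1A start 230 bases apart, and in T98G vec MAP1A was at 5.55, 3.45, and 3.89 CPM while TP53BP1 was at 23.6, 48.8, and 20.9 CPM. ZNF106 and SNAP23, a vesicle fusion protein gene, start 92 bases apart, with log2FC values of -0.25 to 0.48 and 0.17 to 0.52. No gene of these 4 pairs was called for WWOX in any line by limma, edgeR, or voom, with 3 genes in T98G, 1 in U251MG, and 0 in the other lines at an unadjusted p under 0.05.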

How the data were processed

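CAGE-Seq libraries of 4 lines in 2 variants (24 libraries) were analysed from the deposited table of CPM values. The authors aligned reads to hg38 with STAR, counted tags over genes with SAM-based tools, and deposited CPM, that is tag counts scaled to a sum of 1000000 over the genes of each library. The annotation release and the use of strand in counting are not given in the sources used here, and the submitters' processing notes name limma 3.42 for the study's own tests. Whole tags were recovered for 100% of values (within 0.01 of a whole number). Positions came from GENCODE release 44 (43033 of 43037 identifiers matched, 4 did not). The per-library tables held the same values as the whole table in all 24 cases, and 0 columns were left unused. The resampled samples that the study built from its counts were not rebuilt.

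CPM were scaled by unweighted TMM factors (30% of ratios and 5% of levels trimmed), genes with 5 CPM in at least 1 library were kept, and log2(scaled CPM + 0.5) was fitted with limma 3.58.1 (trend, empirical Bayes) for 8 groups and 16 residual degrees of freedom. Tests were two-sided, with Benjamini-Hochberg adjustment over all 12327 genes and a threshold of 0.05. The median SE of a log2FC was 0.321 over all genes and 0.313 over the 375 genes. Depth of 10756072 to 16953689 tags set the floor of 3 tags per library, and bounds cover counting error only. The scripts were tested on simulated data and used R 4.3.3, edgeR 4.0.16, and Python 3.11.15 with matplotlib 3.10.9, pandas 2.3.3, scipy 1.17.1, and numpy 2.4.6.

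Named genes were, per line, up to 6 rises and 6 falls among called genes whose variants did not overlap, up to 4 highest and 4 lowest vec genes, the 8 genes with the smallest p of the F test, the 3 genes with the highest mean level and every called gene of each list, and the 4 head-to-head pairs with the highest lower member. Other names were chosen after their values were seen and are marked so. Single genes of the lists that are not named are not reported here. The chromosome, its members, and the 7 lists were chosen with earlier results of these data known, so that no adjustment over a list alone is given. Alternatives were the CPM as deposited, median of ratios scaling, pseudocounts of 0.1 and 1, no filter, a separate model per line, a replicate block, edgeR quasi-likelihood and limma-voom on recovered tags, leaving out each library, and, added after seeing the data, a correction for GC content and transcript length.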

Additional observations from a re-analysis of the deposited data

Results flagged for a closer look

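Genes of the chromosome were singled out where the log2FC of WWOX versus vec differed among the 4 lines by the F test of limma, and 6 of 375 did (1.6%, against 3.5% of all genes). The adjusted p was 6.06e-08 for NDN, whose log2FC was 4.12 in U87MG and 1.35 in DBTRG-05MG, against -0.65 in T98G and -0.07 in U251MG. In these last lines NDN was near 0 CPM, at most 0.422 CPM in T98G and 0.0811 CPM in U251MG. For ST8SIA2, the adjusted p was 0.000124, with a log2FC of -2.17 in DBTRG-05MG and -0.25 to 0.52 in the lines where the gene was near 0 CPM. FOXB1 (adjusted p = 0.00756) had 2.17 in DBTRG-05MG and at most 0.892 CPM elsewhere.

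NTRK3 (adjusted p = 0.0330) had log2FC values of opposite sign in U251MG (-1.56) and DBTRG-05MG (0.94), in both cases without overlap of the variants. SLCO3A1 (adjusted p = 0.0349) had -1.47 in DBTRG-05MG and -0.07 to 0.22 in the other lines. ABHD17C (adjusted p = 0.0472) had 1.17 in U251MG, 0.58 in U87MG, -0.28 in T98G, and -0.30 in DBTRG-05MG. These 3 calls were lost with a replicate block, and that of SLCO3A1 also with a pseudocount of 1 or CPM as deposited. Those of NTRK3 and ABHD17C were also lost with edgeR, voom, a pseudocount of 0.1, or no filter. NTRK3 further lost its call with the GC and length correction, and ABHD17C with CPM as deposited. The FOXB1 call was lost with a pseudocount of 0.1, edgeR, or voom (adjusted p = 0.585 with edgeR and 0.499 with voom). Groups of 3 libraries were too small for a test of single outlying libraries.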

How the results depend on the processing

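The relative level of the chromosome moved by less than the spread of libraries under all 6 alternatives that bear on it, and the 4 counts between vec variants stayed within 1.5 times under all 8. WWOX minus vec was 0.22 to 0.25 in U251MG, against 0.02 to 0.06 in DBTRG-05MG, 0 to 0.04 in T98G, and 0.00 to 0.02 in U87MG, where it was -0.02 without WWOX replicate 1, so that no direction is given for T98G or U87MG. The counts for WWOX were small and moved. The shares over all genes are not given for the alternatives below or at an unadjusted p, so that these counts do not set the chromosome against all genes. In U87MG, 4 genes became 8 with a pseudocount of 0.1, 12 with the GC and length correction, and 2 with a separate model per line. In T98G, 2 became 1 with CPM as deposited, edgeR, or voom, 5 with the GC and length correction, and 0 with a separate model (limma, 39 at an unadjusted p under 0.05). In U251MG, 2 became 1 with a pseudocount of 0.1 or no filter, 4 with a pseudocount of 1 or the GC and length correction, and 0 with a separate model (limma, 35 unadjusted), edgeR (82), or voom (73, as in the model used). In DBTRG-05MG, 4 became 2 with a pseudocount of 0.1, a separate model, or edgeR. The 6 genes of the F test became 20 with the GC and length correction, 3 with edgeR, and 2 with voom. The separate models rest on fewer libraries, and the cause of the other moves was not tested. SLCO3A1 lost its call with a pseudocount of 1 (limma, adjusted p = 0.0547), and NDN in DBTRG-05MG and FOXB1 lost it with a pseudocount of 0.1, a separate model, or edgeR (up to 0.187 and 0.227). In U87MG, LINC02352 lost its call with a separate model or edgeR, and STRA6 with a separate model, a replicate block, or voom. In T98G, UBAP1L lost it with these 3, a pseudocount of 0.1, or edgeR (up to 0.363).

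Leaving out 1 library gave 2 to 7 genes in U87MG, 0 to 8 in T98G (8 without vec replicate 2), 0 to 24 in U251MG (24 without WWOX replicate 2), 3 to 4 in DBTRG-05MG, and 3 to 14 by the F test (14 without T98G WWOX replicate 1), all by limma. UBAP1L fell below the filter in 1 of the 24 cases. Counts between vec variants were 119 to 179, 93 to 159, 92 to 129, and 106 to 169 in U87MG, T98G, U251MG, and DBTRG-05MG.

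With a replicate block within each line, T98G and U251MG had 0 calls (limma, 42 and 64 genes at an unadjusted p under 0.05), which also ended the call of STRA6 in U87MG and the F test calls of NTRK3, SLCO3A1, and ABHD17C, and no other call for WWOX ended. Deviations of same-numbered vec and WWOX libraries correlated at -0.55 to 0.51. Libraries of different numbers were not compared, so that these values cannot tell whether a shared number stands for a shared batch. At a median SE of 0.313, small log2 differences of single genes were not detectable at this depth and number of libraries.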
